A study of Mus musculus with 27 samples.

Results

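The 9 B cell lineage genes, Ms4a1, Cd79a, Cd79b, Pax5, Cr2, Fcer2a, Bank1, Fcrla and Cd22 were measured in the lungs of 9 inbred mouse strains. They were chosen by name, each through the Entrez identifier of its probe set, and each had 1 probe set among the 20239 that carry a single gene symbol. RNA came from the right lung of female mice aged 11 weeks, with 3 mice and 3 arrays for every strain, and nothing in the labels gives a treatment. The strains were 129S1/SvlmJ, MRL/MpJ, KK/HlJ, A/J, C3H/HeJ, C57L/J, C57BL/6J, DBA/2J and BALB/cJ, all inbred, so that the mice of a strain share a genotype. The labels class KK/HlJ and MRL/MpJ as decreased in the severity of spontaneous pulmonary adenoma, a benign lung tumour, and the other 7 strains as increased. For its frequency they class A/J, C57BL/6J and DBA/2J as increased and the other 6 strains as decreased.

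B cells recognise antigen through a membrane immunoglobulin that signals through the CD79A and CD79B chains. Co-receptors on the surface raise or lower that signal, and transcription factors such as PAX5 keep the cell in the lineage. In the mouse lung, B cells occur in the blood held in the vessels, scattered in the tissue and, at some sites, in lymphoid aggregates beside the airways. The RNA was extracted from whole lung, so fewer B cells and less RNA per B cell cannot be told apart in any value below.

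Values are log2 signals as deposited, and a difference of 1 log2 is a factor of 2. They were not compared between genes, because each probe set has its own response. Tests were run in limma, the Benjamini-Hochberg adjustment covered all 20239 genes, and a gene with an adjusted p under 0.05 counts as called.

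The arrays were alike in their bulk, and 26 of 27 correlated best with another array of their own strain. The lowest correlation within a strain was 0.984. A check of the strain labels went against 1 of them. H2-Ea, an MHC class II gene that is silent in strains of the H2-b haplotype, averaged 11.17 ± 0.09 on the arrays labelled C57L/J (SD, n = 3), although C57L/J is known as a strain of that haplotype. It averaged 4.90 ± 0.04 in 129S1/SvlmJ, 4.88 ± 0.32 in KK/HlJ and 4.79 ± 0.22 in C57BL/6J, and from 10.92 to 11.42 in the remaining 5 strains. These 3 arrays are therefore called the arrays labelled C57L/J, and the main counts are also given without them. Replicate 2 of C3H/HeJ stood apart in another way, with a summed signal of 11387 over 11 skeletal muscle genes, against 457 to 699 on the other arrays. The 6 Y-linked genes had strain means between 2.50 and 3.56, near the bottom of the scale.

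The promoters of 4 of the genes are shown because these genes carry the results that follow: Cd79a as a receptor chain that moved closely with the rest, Fcer2a for its wide range among strains, and Cr2 and Cd22 for strain patterns of their own. Each is the 250 bases before the start of the promoter entry nearest the edge of the RefSeq gene. Sequences are from GRCm38.p6, the C57BL/6J reference, written 5′ to 3′ on the strand of the gene. For Cd79a and Fcer2a that start is the gene edge. The Cr2 and Cd22 genes begin at chr1:195176880 and chr7:30880342. Their stretches therefore lie partly (Cr2) and wholly (Cd22) inside the gene. The stretches are chr7:24897247-24897496 on the plus strand for Cd79a, and on the minus strand chr8:3694175-3694424 for Fcer2a, chr1:195176720-195176969 for Cr2 and chr7:30879029-30879278 for Cd22.
Cd79a: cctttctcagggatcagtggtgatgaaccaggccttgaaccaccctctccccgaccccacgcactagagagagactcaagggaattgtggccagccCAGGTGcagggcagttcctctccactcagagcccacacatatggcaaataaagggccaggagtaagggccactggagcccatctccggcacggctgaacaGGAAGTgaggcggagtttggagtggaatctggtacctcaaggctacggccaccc
Fcer2a: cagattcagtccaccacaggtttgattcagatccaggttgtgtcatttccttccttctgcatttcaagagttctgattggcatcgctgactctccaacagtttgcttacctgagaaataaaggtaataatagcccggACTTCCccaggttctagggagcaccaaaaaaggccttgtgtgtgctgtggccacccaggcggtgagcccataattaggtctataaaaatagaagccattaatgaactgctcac
Cr2: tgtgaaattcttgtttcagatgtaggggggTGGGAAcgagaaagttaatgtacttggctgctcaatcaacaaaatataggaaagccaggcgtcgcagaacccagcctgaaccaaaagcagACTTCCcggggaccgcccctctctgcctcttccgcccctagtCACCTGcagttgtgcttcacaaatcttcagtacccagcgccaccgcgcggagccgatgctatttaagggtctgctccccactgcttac
Cd22: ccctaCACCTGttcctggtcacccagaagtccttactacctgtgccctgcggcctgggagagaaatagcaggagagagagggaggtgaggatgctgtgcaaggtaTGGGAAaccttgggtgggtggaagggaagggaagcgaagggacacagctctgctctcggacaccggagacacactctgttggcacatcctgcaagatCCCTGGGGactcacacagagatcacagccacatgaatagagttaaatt
Capitals mark matches, on either strand, to 5 short motifs of factors known in B cells. The motifs were the EBF core CCCNNGGG, the octamer ATGCAAAT, an ETS core GGAAGT, an E box CAGGTG and an Ikaros core TGGGAA, and a match is a description, not a site. Cd79a had an ETS match 54 bases and an E box match 154 bases before the start. Fcer2a had an ETS match at 113 bases. Cr2 had an E box match at 88, an ETS match at 130 and an Ikaros match at 220 bases, and Cd22 had an EBF match at 48, an Ikaros match at 145 and an E box match at 245 bases. Among all 32841 promoters in the table, 11.8% held the EBF core, 1.6% the octamer, 19.7% the ETS core, 17.2% the E box and 21.6% the Ikaros core. The table held 7 of the 9 genes, without Ms4a1 and Cd79b.

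Among the 9 strains, 8 of the 9 B cell genes differed by the F test, against 28.9% of all genes called. Fcer2a had the lowest adjusted p, 0.00017, and the other called genes had adjusted p from 0.00874 for Pax5 to 0.0267 for Bank1. Cr2 missed the threshold, with an adjusted p of 0.0596. The distance between the highest and the lowest strain mean was 1.5 log2 for Fcer2a, a factor of 2.83, and 1.08 log2 for Ms4a1, a factor of 2.12. It was smallest for Cd22, at 0.44 log2, a factor of 1.35. For 8 of the 9 genes the lowest strain was 129S1/SvlmJ. Without the arrays labelled C57L/J all 9 genes passed, Cr2 with an adjusted p of 0.032, and without replicate 2 of C3H/HeJ 8 passed.

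**Figure D1:**
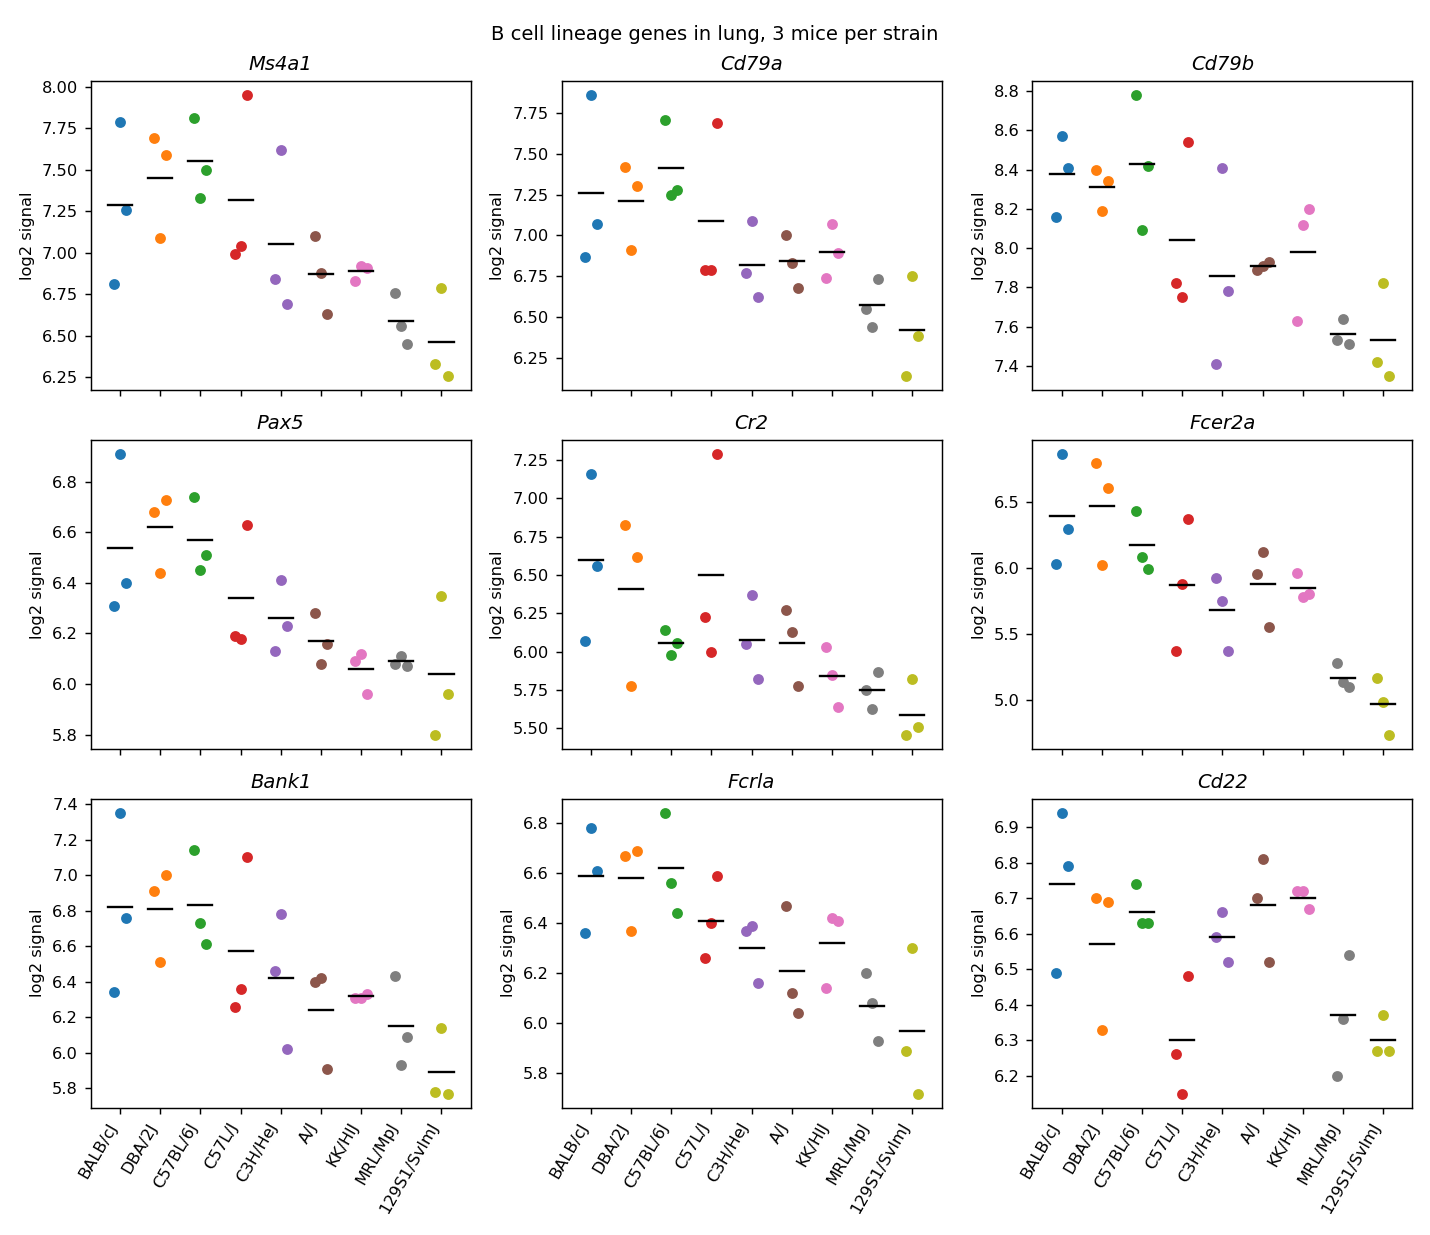
Log2 signal (vertical axis) of each of the 9 genes on all 27 arrays, by strain (horizontal axis), with strains ordered by the average deviation of the 9 genes. Each point is 1 mouse and each bar a strain mean; the points of 129S1/SvlmJ and MRL/MpJ at the right lie low in most panels, and those of Fcer2a there lie between 4.74 and 5.28.

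Cd79a and Cd79b, the signalling chains of the B cell receptor, ran low in 129S1/SvlmJ and MRL/MpJ and high in C57BL/6J, BALB/cJ and DBA/2J. Cd79a had 6.14, 6.75 and 6.38 in 129S1/SvlmJ, 6.55, 6.44 and 6.73 in MRL/MpJ, 6.74, 7.07 and 6.89 in KK/HlJ, 7.0, 6.83 and 6.68 in A/J, and 6.77, 7.09 and 6.62 in C3H/HeJ. It had 6.79, 6.79 and 7.69 on the arrays labelled C57L/J, 7.42, 6.91 and 7.30 in DBA/2J, 6.87, 7.86 and 7.07 in BALB/cJ, and 7.71, 7.25 and 7.28 in C57BL/6J. All 3 arrays of 129S1/SvlmJ lay below every array of BALB/cJ, C57BL/6J, DBA/2J and those labelled C57L/J, and they overlapped the other 4 strains. Cd79a fell by 0.59 log2 (SE 0.18) in 129S1/SvlmJ relative to the mean of the other 8 strains, with a limma adjusted p of 0.0348. Cd79b had 7.42, 7.82 and 7.35 in 129S1/SvlmJ and 7.53, 7.64 and 7.51 in MRL/MpJ, against 8.78, 8.09 and 8.42 in C57BL/6J. Its difference from the other 8 strains was -0.53 in 129S1/SvlmJ, with an adjusted p of 0.0427, and -0.50 in MRL/MpJ, with an adjusted p of 0.0498. Both calls on Cd79b sat at the edge, and leaving out single arrays of several strains ended them.

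Ms4a1 encodes CD20, a surface protein of B cells that is used as their marker. It had 6.33, 6.79 and 6.26 in 129S1/SvlmJ, 6.76, 6.56 and 6.45 in MRL/MpJ, 6.83, 6.92 and 6.91 in KK/HlJ, 7.10, 6.88 and 6.63 in A/J, and 6.84, 7.62 and 6.69 in C3H/HeJ. The values were 6.99, 7.04 and 7.95 on the arrays labelled C57L/J, 7.69, 7.09 and 7.59 in DBA/2J, 6.81, 7.79 and 7.26 in BALB/cJ, and 7.81, 7.33 and 7.50 in C57BL/6J. The spread within a strain differed widely, with an SD of 0.05 in KK/HlJ and of 0.54 on the arrays labelled C57L/J. Ms4a1 fell by 0.66 log2 (SE 0.19) in 129S1/SvlmJ relative to the other 8 strains, with a limma adjusted p of 0.031. In MRL/MpJ its difference was -0.52, with an adjusted p of 0.0802.

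Fcer2a encodes CD23, the low-affinity receptor for IgE, which in the mouse is carried mainly by follicular B cells. It had 5.17, 4.99 and 4.74 in 129S1/SvlmJ and 5.28, 5.14 and 5.10 in MRL/MpJ. The next strains up were C3H/HeJ with 5.92, 5.75 and 5.37, KK/HlJ with 5.96, 5.78 and 5.80, the arrays labelled C57L/J with 5.37, 5.88 and 6.37, and A/J with 5.95, 6.12 and 5.55. Each array of 129S1/SvlmJ and of MRL/MpJ therefore lay below each array of the other 7 strains. C57BL/6J had 6.43, 6.08 and 5.99, BALB/cJ 6.03, 6.86 and 6.29, and DBA/2J 6.79, 6.02 and 6.60. Fcer2a fell by 0.97 log2 (SE 0.17) in 129S1/SvlmJ relative to the other 8 strains, with a limma adjusted p of 0.000656, and by 0.74 log2 (SE 0.17) in MRL/MpJ, with an adjusted p of 0.0073. It was 0.72 log2 higher in DBA/2J, with an adjusted p of 0.0141, and 0.64 log2 higher in BALB/cJ, with an adjusted p of 0.0297. The call in 129S1/SvlmJ held with any 1 array left out. The call in MRL/MpJ was lost without replicate 3, with an adjusted p of 0.0563, that in DBA/2J without replicate 1 or replicate 3, and that in BALB/cJ without replicate 2 or replicate 3.

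Cr2 encodes the complement receptors CD21 and CD35, which bind complement fragments on B cells and are also carried by follicular dendritic cells. It had 5.46, 5.82 and 5.51 in 129S1/SvlmJ, 5.75, 5.63 and 5.87 in MRL/MpJ, 6.03, 5.85 and 5.64 in KK/HlJ, 6.27, 6.13 and 5.78 in A/J, and 6.05, 6.37 and 5.82 in C3H/HeJ. C57BL/6J, which was among the 3 highest strains for 7 of the other genes, had 6.14, 5.98 and 6.06 for Cr2, and its mean of 6.06 stood beside 6.08 in C3H/HeJ and 6.06 in A/J. The arrays labelled C57L/J had 6.23, 6.00 and 7.29, DBA/2J had 6.83, 5.78 and 6.62, and BALB/cJ had 6.07, 7.16 and 6.56. The 3 strains with the highest means had SDs of 0.55 to 0.69, against 0.08 to 0.27 in the other 6. The largest Cr2 difference of a strain from the other 8 was -0.57 (SE 0.21) in 129S1/SvlmJ, with an adjusted p of 0.0961.

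Cd22 encodes a sialic-acid-binding lectin that restrains B cell receptor signalling. It had 6.27, 6.37 and 6.27 in 129S1/SvlmJ, 6.20, 6.36 and 6.54 in MRL/MpJ, and 6.26, 6.15 and 6.48 on the arrays labelled C57L/J. The other 6 strains had means between 6.57 in DBA/2J and 6.74 in BALB/cJ. The 3 KK/HlJ arrays, at 6.72, 6.72 and 6.67, overlapped those of BALB/cJ, at 6.49, 6.94 and 6.79, although KK/HlJ ranked lower for the other genes. Cd22 fell by 0.27 log2 (SE 0.09) in 129S1/SvlmJ relative to the other 8 strains, with a limma adjusted p of 0.047. Leaving out 1 array ended this call for 18 of the 27 arrays. On the arrays labelled C57L/J the difference was -0.28, with an adjusted p of 0.0548.

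Pax5, the transcription factor that commits and holds cells to the B lineage, had 5.80, 6.35 and 5.96 in 129S1/SvlmJ and 6.08, 6.11 and 6.07 in MRL/MpJ. KK/HlJ was as low, with 6.09, 6.12 and 5.96, and its mean of 6.06 lay below the 6.09 of MRL/MpJ. Pax5 had 6.68, 6.44 and 6.73 in DBA/2J, the strain with its highest mean, and the 2 sets of arrays of 129S1/SvlmJ and DBA/2J did not overlap. Its difference from the other 8 strains was -0.29 in 129S1/SvlmJ, with an adjusted p of 0.106. Bank1, an adaptor that links the B cell receptor to calcium release, had 5.78, 6.14 and 5.77 in 129S1/SvlmJ, against 7.14, 6.73 and 6.61 in C57BL/6J. It fell by 0.63 log2 (SE 0.18) in 129S1/SvlmJ relative to the other 8 strains, with a limma adjusted p of 0.0294. Fcrla, an Fc receptor-like protein that stays inside B cells, had 5.89, 6.30 and 5.72 in 129S1/SvlmJ, against 6.84, 6.56 and 6.44 in C57BL/6J. It fell by 0.42 log2 (SE 0.11), with an adjusted p of 0.0184.

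Set against the other 8 strains, 129S1/SvlmJ was lower for 7 of the 9 genes, where 6.43% of all genes were called lower. MRL/MpJ was lower for 2, with 5.61% of all genes called lower. BALB/cJ and DBA/2J were each higher for Fcer2a, with 2.48% and 2.87% of all genes called higher in those strains. That made 11 calls in 81 tests of a gene in a strain, where 7.54% of such tests were called over all genes. The median difference of the 9 genes was -0.57 in 129S1/SvlmJ and -0.39 in MRL/MpJ, where the medians of all genes were -0.01 and 0.04. It was 0.38 in C57BL/6J, 0.36 in BALB/cJ and 0.35 in DBA/2J, with medians of all genes of -0.05, 0.01 and -0.01. Outside Fcer2a, the lowest adjusted p in these 3 strains was 0.0658, for Pax5 in DBA/2J at a difference of 0.36, and the next was 0.0726, for Cd79a in C57BL/6J at 0.52.

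The count in 129S1/SvlmJ rested on 2 of its 3 mice. Replicate 2 had all 9 genes above the mean of the strain, by 0.24 log2 on average. Without replicate 1, or without replicate 3, only Fcer2a was called lower in 129S1/SvlmJ, and the 11 calls came to 4. Without the arrays labelled C57L/J the 7 lower calls in 129S1/SvlmJ and the 2 in MRL/MpJ were again 7 and 2, and calls of higher signal came to 7. Without replicate 2 of C3H/HeJ there were 6 lower calls in 129S1/SvlmJ and 2 in MRL/MpJ.

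**Figure D2:**
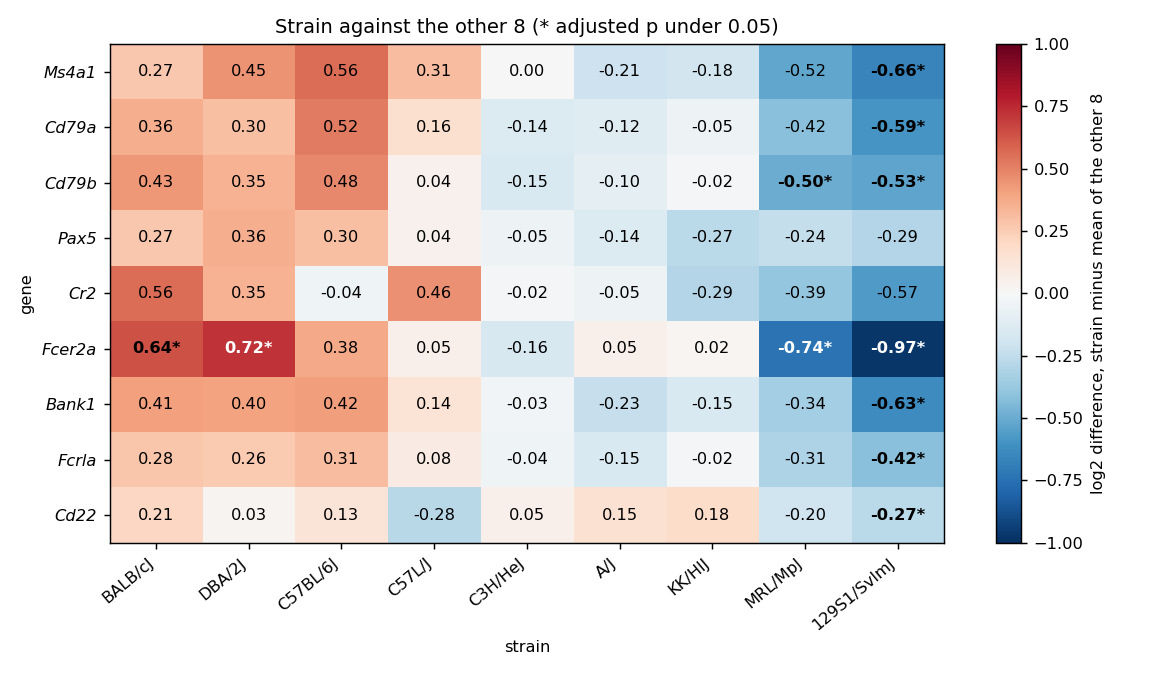
Log2 difference of each strain (columns) from the mean of the other 8, for each gene (rows), with red for higher and blue for lower and with asterisks at adjusted p under 0.05. The 129S1/SvlmJ column holds 7 asterisks, and the Fcer2a row runs from -0.97 in 129S1/SvlmJ to 0.72 in DBA/2J.

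Between single strains, 48 of 324 tests of a gene in a strain pair were called, where 7.31% of such tests were called over all genes. In 7 of the 48 the difference was at least 1 log2, which 0.655% of all gene-pair tests reached. The lower strain was 129S1/SvlmJ in 29 of the 48 and MRL/MpJ in 14. Against 129S1/SvlmJ, C57BL/6J differed for 8 genes, with 10.3% of all genes called in that pair, BALB/cJ for 8, with 6.16%, and DBA/2J for 7, with 8.8%. Fcer2a gave 10 of the 48 calls, and 5 of the 7 with at least 1 log2. The widest Fcer2a pair was DBA/2J over 129S1/SvlmJ, at 1.5 log2 (SE 0.23) with an adjusted p of 0.000127, followed by BALB/cJ over 129S1/SvlmJ at 1.43 log2. For Cr2 the pair of BALB/cJ over 129S1/SvlmJ was called, at 1.01 log2 with an adjusted p of 0.0333, and so was that of the arrays labelled C57L/J over 129S1/SvlmJ, at 0.91 log2 with an adjusted p of 0.0483, where 7.94% of all genes were called in that pair. When the strains were put in order of their mean for each gene, the steps between neighbours were at most 0.51 log2, and the smallest adjusted p of the 72 steps was 0.252. None of these steps was called, that between 129S1/SvlmJ and MRL/MpJ included. The widest step was that of Fcer2a from C3H/HeJ to MRL/MpJ, at 0.51 log2 (SE 0.23), and the arrays of these strains did not overlap.

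The 9 genes were positively correlated from mouse to mouse and from strain to strain, in each case to unequal degrees. Over the 27 arrays the correlation between 2 of the genes had a median r of 0.83, with a range of 0.47 to 0.95 over the 36 gene pairs. After the strain means were subtracted the median r was 0.74, with a range of 0.39 to 0.93, and over the 9 strain means it was 0.90, with a range of 0.28 to 0.99. Points of 1 strain share a genotype, and all values of an array share its RNA and scaling. Bank1 and Cd79a followed the mean of the other 8 genes most closely, each with r = 0.96, and Cd22 least, with r = 0.62.

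Single mice set part of the spread within a strain. Replicate 3 of the arrays labelled C57L/J had all 9 genes above its strain's mean, by 0.47 log2 on average, and replicate 2 of BALB/cJ by 0.40. Replicate 2 of C3H/HeJ was 0.27 above its strain's mean, and replicate 1 of BALB/cJ and replicate 2 of DBA/2J were 0.35 and 0.31 log2 below theirs. In 3 strains, C57BL/6J, BALB/cJ and that labelled C57L/J, 1 array was the highest for all 9 genes. KK/HlJ and MRL/MpJ were the tightest strains, with an SD of 0.05 each for the average of the 9 genes, against 0.40 on the arrays labelled C57L/J and 0.38 in BALB/cJ. Other lists moved on some of these arrays, and their part in the result was not tested. A list of 4 red cell genes, among them the haem enzyme gene Alas2, had a median r within strains of 0.55 with the average of the 9 genes. On arrays high for the B cell genes it was 1.84 log2 above the strain mean on replicate 3 of the arrays labelled C57L/J, 1.10 above on replicate 2 of 129S1/SvlmJ and 0.66 above on replicate 2 of C3H/HeJ. On replicate 2 of DBA/2J, low for the B cell genes, it was 0.95 below. It went the other way on replicate 2 of BALB/cJ, at 0.61 below, and it was 1.70 above on replicate 2 of A/J, where the B cell genes were 0.05 above. A list of 4 lymphoid stroma genes, with the chemokine gene Cxcl13 of B cell follicles among them, had a median r within strains of 0.25. It was 0.79 above the strain mean on replicate 2 of BALB/cJ, 0.66 on replicate 2 of C3H/HeJ and 0.47 on replicate 3 of the arrays labelled C57L/J. On replicate 3 of 129S1/SvlmJ, the array of that strain with the lowest average of the 9 genes, it was 0.26 above. A list of 14 T cell genes had a median r within strains of 0.58. It was 0.16 above the strain mean on replicate 3 of the arrays labelled C57L/J and 0.14 on replicate 2 of BALB/cJ.

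Given the mean of the other 8 on the same array, 4 of the 9 genes still differed among strains by the F test, where 25.3% of all genes did so in the fits for Cr2 and Ms4a1, 25.4% in that for Cd22 and 25.8% in that for Fcer2a. The adjusted p was 0.002 for Cd22, 0.00615 for Cr2, 0.0213 for Ms4a1 and 0.0487 for Fcer2a. After median centring the adjusted p for Fcer2a was 0.0562. Fcer2a also missed the threshold of this F test when any 1 of 20 arrays was left out, with adjusted p up to 0.116. Ms4a1 missed it when any 1 of 3 arrays was left out, with adjusted p up to 0.0641. Cd22 and Cr2 passed it with any 1 array left out. Cr2 fell by 0.61 log2 (SE 0.12) in C57BL/6J relative to the other 8 strains at the same level of the other genes, with an adjusted p of 0.00307, where 2.75% of all genes were called lower. It was 0.36 log2 higher on the arrays labelled C57L/J, with an adjusted p of 0.0382 and 3.56% of all genes called higher. Cd22 fell by 0.34 log2 (SE 0.06) on the arrays labelled C57L/J, with an adjusted p of 0.00104 and 2.89% of all genes called lower. In KK/HlJ it was 0.23 log2 higher, with an adjusted p of 0.025 and 4.46% of all genes called higher. Ms4a1 was 0.30 log2 lower in BALB/cJ, with an adjusted p of 0.0299 and 2.09% of all genes called lower. Pax5 was 0.23 log2 lower in KK/HlJ, with an adjusted p of 0.0325 and 2.78% of all genes called lower, while its F test in that fit gave 0.132. These calls on Cr2 in C57BL/6J and on Cd22 with the arrays labelled C57L/J held with any 1 array left out, and those in KK/HlJ and BALB/cJ were lost without any 1 array of the strain. The Cr2 call on the arrays labelled C57L/J was lost without replicate 1 or replicate 3 of them, without replicate 2 of 129S1/SvlmJ and with array weights (adjusted p 0.0933). The Cd22 call in KK/HlJ was also lost after quantile normalization (0.0615), median centring (0.0542), with array weights (0.0503) and without all arrays labelled C57L/J (0.0813), and the Pax5 call with array weights (0.112). Without all arrays labelled C57L/J only Cr2 (adjusted p 0.0353) and Fcer2a (0.0443) passed, with Cd22 at 0.0661 and Ms4a1 at 0.0834, and the Ms4a1 call in BALB/cJ was lost (0.105). Leaving out replicate 3 of those arrays alone also ended the Ms4a1 call in BALB/cJ.

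**Figure D3:**
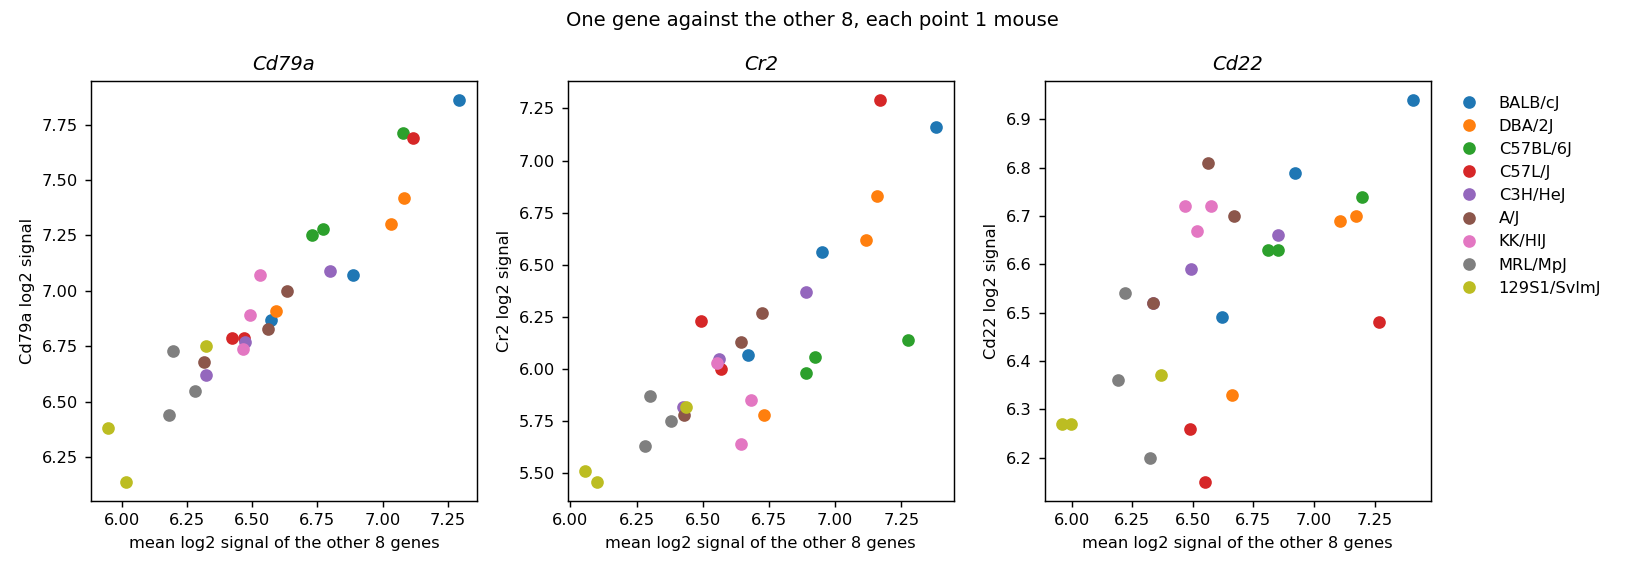
Log2 signal of Cd79a, Cr2 and Cd22 (vertical axes) against the mean log2 signal of the other 8 genes on the same array (horizontal axes), with 1 point per mouse coloured by strain. Cd79a follows the others with r = 0.96, the C57BL/6J points lie low for Cr2, and the points labelled C57L/J lie low for Cd22.

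Genes outside the 9 with the most similar pattern were found by the correlation with their average over the 27 arrays. The 10 highest were Fcrl1 (r = 0.89), Cxcr5 (0.88), Cd37 (0.88), Stap1 (0.87), Blk (0.86), Fcmr (0.86), Arhgap15 (0.84), Ly86 (0.83), Ebf1 (0.83) and Ikzf3 (0.83). After strain means were subtracted, the correlations of these 10 lay between 0.61 for Ebf1 and 0.92 for Fcrl1. For 9 of them 129S1/SvlmJ was the lowest strain, and for Fcrl1 it was MRL/MpJ. Of the 10, 7 were also on the lists of further B cell genes described next.

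Of 64 further B cell genes on 4 lists, 58 were measured and 31 passed the F test, against 28.9% of all genes. Among surface proteins 12 of 14 passed, and among genes of receptor signalling 12 of 17. Among transcription factors 3 of 15 passed, and among survival and homing genes 4 of 12. The 9 genes themselves are not in these lists. Lists of other cells also passed: 9 of 9 NK cell, 11 of 12 dendritic cell and macrophage and 9 of 15 lung genes. For T cell genes it was 4 of 14, for B cell precursor genes 1 of 7 and for red cell genes 0 of 4. Of all 20239 genes, 6095 had a mean under 5 log2, against 3 of the 58 and 0 of the 9. Relative to the other 8 strains, 129S1/SvlmJ was lower for 17 of the 58 and higher for 1, with a median difference of -0.22. Of all genes, 6.43% were called lower and 3.54% higher in that strain. MRL/MpJ was lower for 9 and higher for 1, with a median of -0.08, where 5.61% of all genes were called lower and 6.83% higher. C57BL/6J was higher for 12, where 4.06% of all genes were called higher, and lower for 1, where 4.11% were called lower, with a median of 0.10. These counts moved with single mice: without replicate 1 or replicate 3 of 129S1/SvlmJ its 17 came to 8 and 7, without replicate 1 or replicate 3 of MRL/MpJ its 9 came to 4 and 5, and without replicate 1 or replicate 2 of C57BL/6J its 12 came to 4 and 5.

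In 129S1/SvlmJ the lower surface genes included Fcmr, the Fc receptor for IgM, at -0.76 with an adjusted p of 0.00119. They also included Cd180, a Toll-like receptor homologue, at -0.62, and Btla, an inhibitory receptor of lymphocytes, at -0.36 with an adjusted p of 0.0367. Ly6d, a surface marker of early B lineage cells, was the 1 gene that was higher there, at 0.50, and it was also higher in C57BL/6J, at 1.04. In the signalling list, the kinase gene Btk stood at -0.39 with an adjusted p of 0.00802, the phospholipase gene Plcg2 at -0.39 with 0.000548, and the linker gene Blnk at -0.29 with 0.038. Ebf1, a factor that acts with Pax5 early in the lineage, stood at -0.38 with an adjusted p of 0.00123, and Irf8 at -0.40 with 0.00073. Cxcr5, the receptor for CXCL13, stood at -0.66 with an adjusted p of 0.00105, and Cxcr4 at -0.32 with 0.0193. Tnfsf13b and S1pr1, on the same list, passed the F test and were not called there, at -0.07 and 0.03. Over all arrays the named genes that were called lower correlated to unequal degrees with the average of the 9 genes. The r was 0.24 for Irf8, 0.45 for Plcg2, 0.48 for Cd180, 0.56 for Btk, 0.6 for Cxcr4 and 0.69 for Btla. For Blnk, Ebf1, Fcmr and Cxcr5 it was 0.81, 0.83, 0.86 and 0.88 in turn. The median r of the further B cell genes measured was 0.48. Which cells carried the lower signal was not tested. In C57BL/6J, H2-Ob, a chain of the class II regulator H2-O, was higher by 0.99, Cd72, a B cell co-receptor, by 0.46 and Fcgr2b, the inhibitory receptor for IgG, by 0.46. In MRL/MpJ, Cd72 stood at -0.84 and Btla at -0.65.

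**Figure D4:**
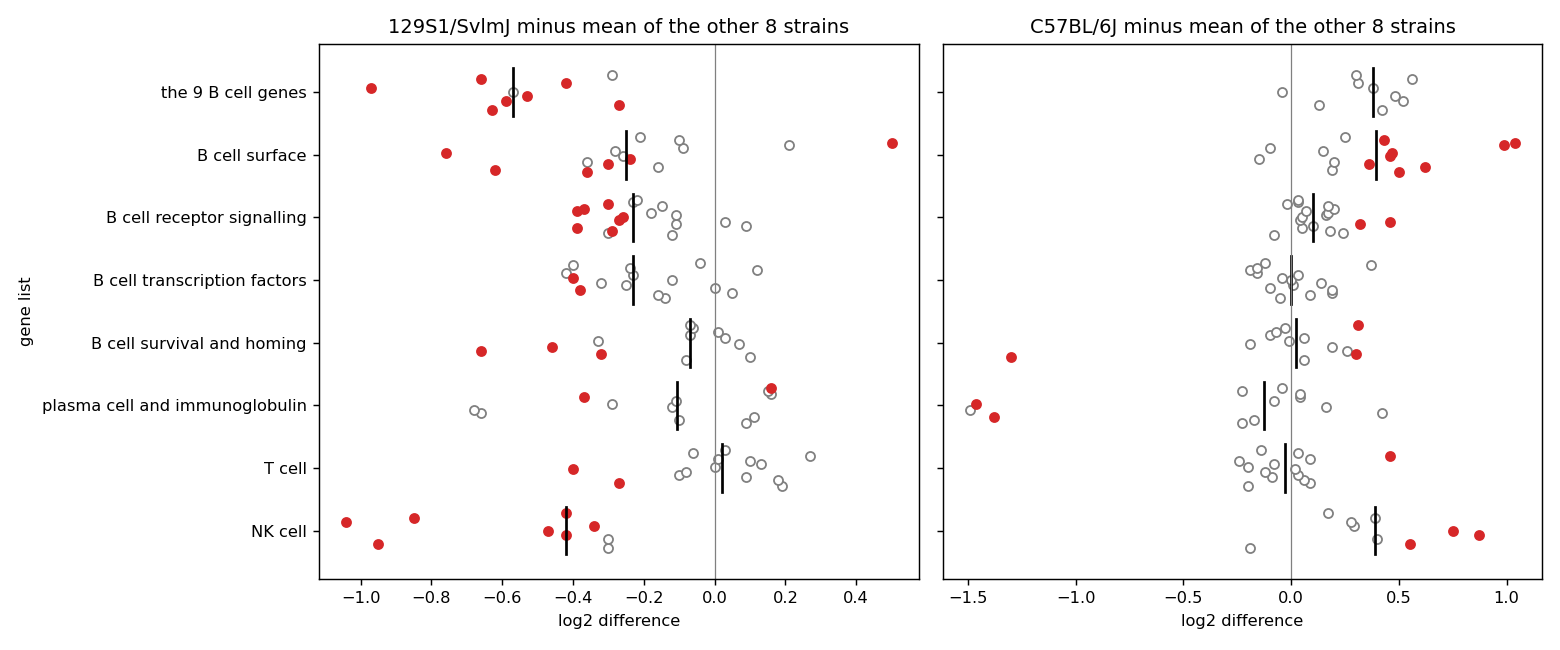
Log2 difference from the mean of the other 8 strains (horizontal axis) in 129S1/SvlmJ (left) and C57BL/6J (right), with 1 point per gene by list (vertical axis), filled at adjusted p under 0.05, and bars at list medians. In 129S1/SvlmJ the median of the 9 genes is -0.57, that of the NK cell list -0.42 and that of the T cell list 0.02.

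Of 12 plasma cell and immunoglobulin genes 7 passed the F test, against 28.9% of all genes, and their highest and lowest strains differed from gene to gene. Igha, the heavy chain of IgA, had 10.96, 12.43 and 11.63 on the arrays labelled C57L/J, against 6.89, 7.06 and 7.09 in DBA/2J and 8.16, 8.08 and 8.08 in C57BL/6J. All 3 values of the arrays labelled C57L/J lay above every array of the other 8 strains. Jchain, which joins IgA and IgM into polymers, had its highest mean there too, at 8.19 ± 1.00, against 4.66 ± 0.64 in DBA/2J (SD, n = 3 each). Ighd, the heavy chain of IgD on naive B cells, was highest in DBA/2J, at 7.87 ± 0.44, and lowest in MRL/MpJ, at 6.47 ± 0.82. The MRL/MpJ arrays had 6.68, 7.16 and 5.57 for Ighd. Ighg1, the heavy chain of IgG1, was called higher in MRL/MpJ, at a difference of 2.23 with an adjusted p of 0.00872. Its highest mean was on the arrays labelled C57L/J, at 8.37 ± 2.34. Over the 27 arrays Ighd correlated with the average of the 9 genes at r = 0.78, Ighm at r = 0.42 and Igha at r = -0.31. Of the 12 genes, 1 was called lower in 129S1/SvlmJ and 1 higher, where 6.43% and 3.54% of all genes were called. The lower was Prdm1, the factor of plasma cell differentiation, at a difference of -0.37 with an adjusted p of 0.0186. The higher was Xbp1, at 0.16 with an adjusted p of 0.0365.

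Markers of other cell types were set beside the low strains, and their part in the results was not tested. Of all genes, 6.43% were called lower and 3.54% higher in 129S1/SvlmJ, and 6.83% were called higher in MRL/MpJ. Of 14 T cell genes, 2 were lower in 129S1/SvlmJ, Cd2 (-0.27, adjusted p 0.0289) and Cd3g (-0.40, adjusted p 0.0499), with a list median of 0.02. Cd247 and Cd8b1 also passed the F test and were not called there, at 0.18 (adjusted p 0.219) and 0.27 (adjusted p 0.188). The summed T cell signal was 917 to 1121 in 129S1/SvlmJ, overlapping the 939 to 1306 of the other 8 strains. Of 9 NK cell genes, 7 were lower in 129S1/SvlmJ, with a list median of -0.42, and 6 were lower in A/J, with a median of -0.69 and 3.75% of all genes called lower. In A/J the B cell genes had a median difference of -0.12. In MRL/MpJ the NK cell median was 0.04 and the T cell median 0.08. Ncr1, an activating receptor of NK cells, stood at -1.04 in 129S1/SvlmJ, and Gzma, a granzyme, at -0.95. Of 12 dendritic cell and macrophage genes, 5 were lower and 2 higher in 129S1/SvlmJ, with a list median of -0.08. The dendritic cell genes Cd209a and Clec9a were among the lower, at -1.81 and -1.28. The higher genes were Chil3, at 1.41, and Marco, a scavenger receptor of macrophages, at 1.15. The lowest adjusted p of the 4 red cell genes was 0.146 in 129S1/SvlmJ and 0.132 in MRL/MpJ, both for the anion exchanger gene Slc4a1, with a list median of -0.66 in 129S1/SvlmJ, the lowest of the 9 strains, and of 0.44 in MRL/MpJ. Their summed signal was 161 to 722 in 129S1/SvlmJ and 446 to 1001 in MRL/MpJ. The summed signal of 7 thymocyte genes was 181 to 193 in MRL/MpJ and 160 to 184 in 129S1/SvlmJ, and 151 to 196 over all arrays. Of these 7, 6 had a mean under 5 log2, and 2 were called higher in MRL/MpJ, Dntt (0.27, adjusted p 0.00793) and Rag1 (0.27, adjusted p 0.0485), with a list median of 0.14. The summed signal of the 15 lung genes in 129S1/SvlmJ was 46841 to 47665.

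For the adenoma classes the 9 strain means were compared, since a genotype and its class are common to the mice of a strain. In the 7 strains with increased severity each of the 9 genes had a higher mean than in the 2 strains with decreased severity. The differences ran from 0.01 for Cd22 to 0.41 for Fcer2a, with a median of 0.29 against -0.03 over all genes. Their adjusted p in limma ran from 0.721 to 0.987. With 1 array left out, the difference for Cd22 ran from -0.03 to 0.06. At an unadjusted p under 0.05 the test called 0 of the 9 genes and 1425 of all genes, and after adjustment 0 and 2, or 0.00988% of all genes. Pax5 came nearest, at 6.36 ± 0.22 in the 7 increased strains and 6.07 ± 0.02 in the 2 decreased strains (SD over strains), with a limma adjusted p of 0.721. For all 9 genes the strain means of the classes overlapped, while those of 6.69% of all genes did not overlap.

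For frequency, the 3 increased strains again had the higher mean for each of the 9 genes. The differences ran from 0.12 for Cr2 to 0.52 for Fcer2a, with a median of 0.26 against -0.04 over all genes, and adjusted p from 0.684 to 0.897. Unadjusted, limma called 0 of the 9 genes and 1558 of all genes, and after adjustment 0 and 0, or 0% of all genes. Fcer2a averaged 6.17 ± 0.30 in A/J, C57BL/6J and DBA/2J, and 5.66 ± 0.52 in the 6 decreased strains (SD over strains), where BALB/cJ reached 6.39. The strain means of the classes overlapped for all 9 genes here too, and did not overlap for 3.92% of all genes. Both classes divide the same 9 strains, so the comparisons are not independent. The 9 genes were correlated over the strain means, with a median r of 0.90, so their shared direction is not 9 separate results.

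**Figure D5:**
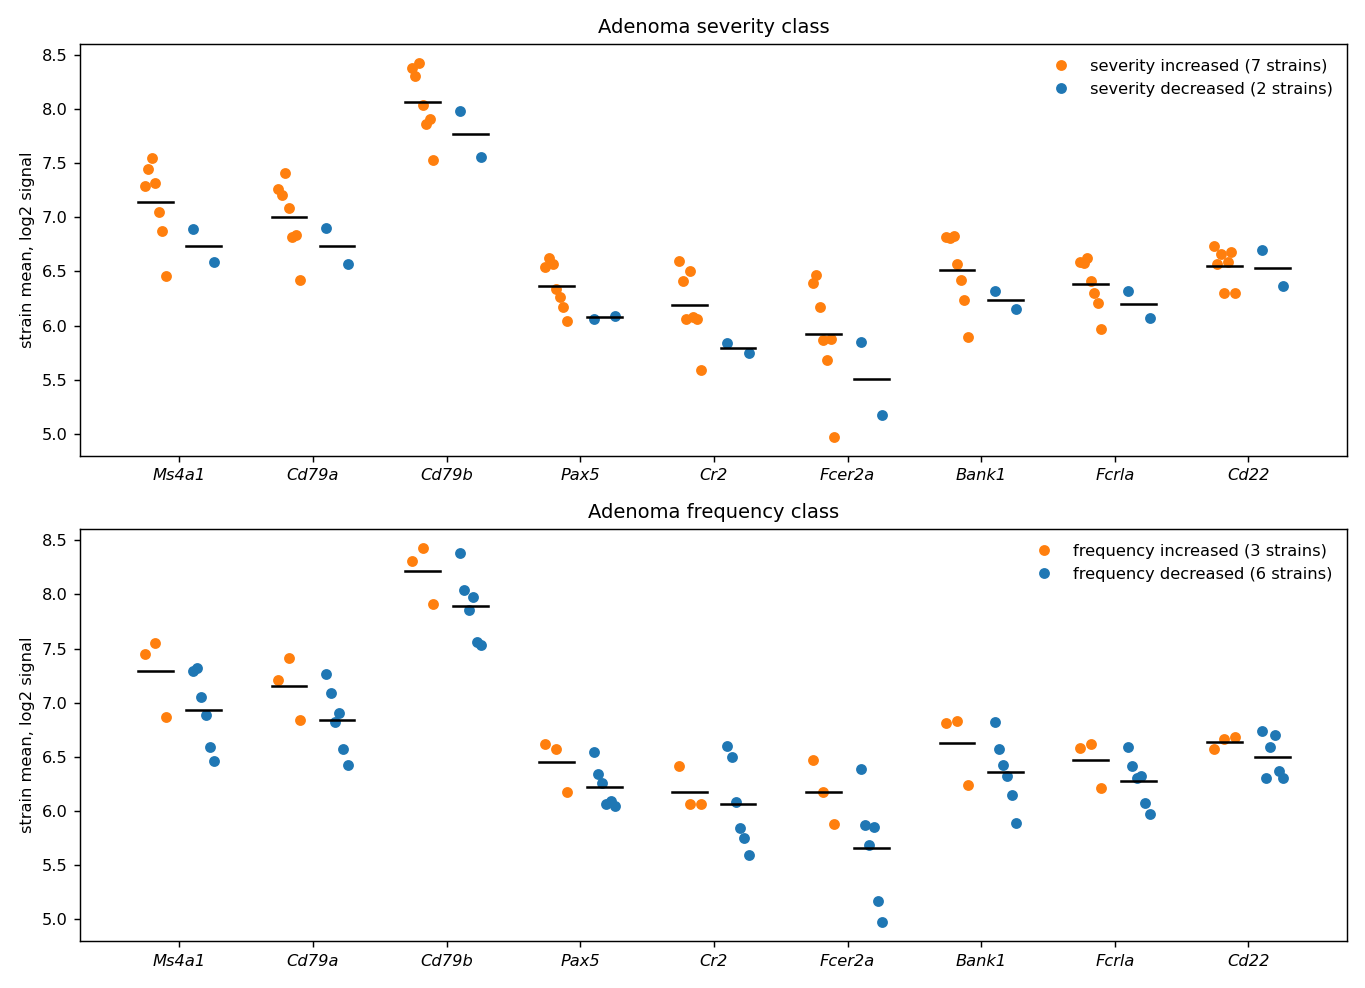
Strain means of the 9 genes (log2 signal, vertical axis) by class of adenoma severity (top) and frequency (bottom), increased in orange and decreased in blue, with 1 point per strain and bars at class means. The points of the classes overlap for every gene in both panels.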

How the data were processed

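Lung RNA of 27 mice was hybridised to Mouse Gene 1.0 ST arrays, 1 array a mouse. TRIzol extraction, column purification and biotin labelling are given in the labels' protocols. The deposited table holds log2 signals of 21225 probe sets; the submitters' processing notes name affy, and its version and the normalization method are not given in the sources used here. Values lay between 1.78 and 13.35, with array medians of 6.24 to 6.37, and were used as deposited. Of the probe sets, 20239 had 1 gene symbol and were tested, and 986 had none. Probe sequences were not examined, so signals were not adjusted for strain differences under a probe.

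R 4.3.3 and limma 3.58.1 were used. lmFit with 1 mean per strain and eBayes gave the F test over strains, each strain against the mean of the other 8, and 36 strain pairs. The F test was repeated for each gene with the mean of the other 8 genes as a covariate. Adenoma classes were tested on the 9 strain means. The Benjamini-Hochberg adjustment ran over all tested genes within each contrast. The number of arrays, 3 a strain, limits the precision. The procedure was tested on simulated data with noise within strains only. Those data had no variation among strains besides the change added, so they do not show how the adenoma test behaves here.

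The genes and lists were chosen with earlier results of these data known. Every one of the 9 genes is named. From the other lists, genes were taken among those passing the F test, at most 5 a list by F. Not every gene that met this rule is named. The 10 genes most alike are named too, with H2-Ea as a label check. Alas2, Slc4a1, Cxcl13, Dntt, Rag1, Ighm, Prdm1 and Xbp1 are named outside this rule, after their values were seen. Replicate numbers did not pair the mice: same-numbered arrays had correlated deviations over 0.1 for every number in 0 of 36 strain pairs, with a range of -0.27 to 0.28. Alternatives were quantile normalization, median centring, a filter on dim probe sets (mean of at least 5 log2), all probe sets, array weights, a robust prior with an intensity trend, a replicate block, and leaving out arrays or strains.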

Additional observations from a re-analysis of the deposited data

How the results depend on the processing

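No called difference changed direction under any alternative run. The 8 of 9 genes that passed the F test came to 6 to 9 with 1 array left out, and the 31 further B cell genes to 26 to 35. The 11 calls of a strain against the other 8 came to 19 with array weights and to 4 to 17 with 1 array left out: 4 without replicate 1 or replicate 3 of 129S1/SvlmJ, 7 without replicate 3 of BALB/cJ or replicate 1 or 3 of DBA/2J, and 17 without replicate 3 labelled C57L/J. The 48 pair calls came to 25 to 63, with 31 and 25 without replicates 1 and 3 of 129S1/SvlmJ in turn. The 4 genes that passed given the other 8 came to 2 without the arrays labelled C57L/J and to 2 to 5 with 1 array left out, with 2 without replicate 1 or 2 of BALB/cJ or replicate 3 labelled C57L/J. Calls of higher signal came to 9 with array weights, against 2. The further B cell genes higher in C57BL/6J came to 22 with array weights, against 12. The adenoma classes called 0 of the 9 genes in all 16 alternatives and with any 1 array left out. Those 16 count the removal of the arrays labelled C57L/J under 2 names. Cr2 passed the F test after quantile normalization (adjusted p 0.0448), median centring (0.0493), the filter on dim probe sets (0.0458) and array weights (0.0397). In 129S1/SvlmJ, Cd79b missed the threshold after quantile normalization (0.0751), median centring (0.0532) and with the intensity trend (0.0617), and Cd22 after quantile normalization and median centring (0.0766 each). The call of Cd79b in MRL/MpJ was lost in 5 alternatives, and that of Fcer2a in BALB/cJ with array weights (0.095). With the replicate number as a block, strain calls came to 9, pair calls to 43 and calls given the other genes to 3; Cd22 in 129S1/SvlmJ stood at an adjusted p of 0.0581, Cd79b in MRL/MpJ at 0.0512 and Fcer2a given the other genes at 0.0526. The numbers do not pair the mice, so these losses say nothing of the size of an effect. The cause of these changes was not tested.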
